A study of Mus musculus with 11 samples.

Results

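The let-7 family was followed in feces of mice given dextran sulfate sodium (DSS) to drink, which injures the lining of the colon and brings on colitis. The 8 members, let-7a-5p, let-7b-5p, let-7c-5p, let-7d-5p, let-7e-5p, let-7f-5p, let-7g-5p and let-7i-5p, were taken by name from the 616 rows of a small RNA count table, and all 8 had a row. The samples were feces of C57BL/6 mice in 11 libraries: 4 from before DSS, 3 after 5 days of 2.5% DSS in drinking water, and 4 from day 12, when the same DSS course had been followed by 7 days without DSS. The labels give no age or sex, do not say whether libraries of a phase came from separate mice, and include no DSS-free mice at the later days, so phase and sampling day cannot be told apart and p-values measure the spread between these libraries, which may be technical. The 4 columns taken as before DSS are headed as day 1 in the table, a day no sample label names; they were assigned to that phase because the other columns name day 5 and day 12. Libraries carry here the phase and the number of their column in the table, which for day 5 is 1, 3 and 4.

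Let-7 miRNAs are short RNAs conserved across animals that lower the output of messenger RNAs pairing with the seed near their 5′ end. They accumulate as cells differentiate and restrain growth genes such as Ras, Myc and Hmga2. The RNA-binding proteins LIN28A and LIN28B block their maturation, and in mouse intestine excess LIN28B with low let-7 favours tumour growth. Because the members share a seed, they are thought to share most targets, and they differ mainly in the genes that encode them and in bases outside the seed.

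The mature sequences below (RefSeq, GRCm38.p6, 5′ to 3′) are shown because the members are so alike that a read can be told apart only by a few bases; capitals mark the seed, bases 2 to 8. Each has 22 bases, so comparing members needs no length correction. Whether library preparation captured the members equally well was not tested, so orders and ratios between members are those of counts. The last line is miR-98-5p, the remaining row of the table with this seed among the 461 rows that matched a RefSeq mature sequence by name.
let-7a-5p: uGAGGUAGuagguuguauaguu
let-7b-5p: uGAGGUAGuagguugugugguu
let-7c-5p: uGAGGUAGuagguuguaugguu
let-7d-5p: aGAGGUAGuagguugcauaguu
let-7e-5p: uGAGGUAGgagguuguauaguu
let-7f-5p: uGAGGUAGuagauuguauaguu
let-7g-5p: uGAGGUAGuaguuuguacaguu
let-7i-5p: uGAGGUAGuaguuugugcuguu
miR-98-5p: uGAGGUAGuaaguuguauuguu

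Of the 28 pairs of members, 4 differed at 1 base and 8 at 2 bases, and the most distant pair differed at 6. Counting from 1 at the 5′ end, with the base of let-7a-5p first, let-7c-5p differed from it by A19G, let-7e-5p by U9G and let-7f-5p by G12A. Let-7b-5p differed from let-7c-5p by A17G, with the base of let-7c-5p first. Let-7i-5p was farther away: it differed from let-7g-5p at 2 bases (G17A and U19A, with the base of let-7i-5p first) and from let-7c-5p at 4 (U12G, G17A, C18U and U19G). The sources used here do not give the mismatches allowed in counting, so counts of let-7a-5p, let-7b-5p, let-7c-5p, let-7e-5p and let-7f-5p may hold reads of one another, and values for these 5 are uncertain in that respect.

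Several members are made from more than 1 gene. In RefSeq (GRCm38.p6) chromosome 10 holds the hairpin of let-7i, between 122985640 and 122985724 on the minus strand, and the GENCODE annotation places it within an exon of D630033A02Rik, a transcribed pseudogene. Let-7c-5p comes from Mirlet7c-2 on chromosome 15 (85706603 to 85706697, an exon of the noncoding gene Lncppara) and from Mirlet7c-1 on chromosome 16 (77599657 to 77599750, an intron of Mir99ahg), and its counts cannot be divided between them. The hairpin of let-7b begins 621 bases after that of let-7c-2. The hairpins of let-7d, let-7f-1 and let-7a-1 lie together on chromosome 13 in exons of the noncoding gene 6720427I07Rik. Let-7g lies in an intron of Wdr82 on chromosome 9, let-7e in an intron of Spaca6 on chromosome 17, and let-7f-2 in an intron of Huwe1 on chromosome X.

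Library totals ran from 11749 to 40835 miRNA counts, with means of 23027 before DSS, 14025 on day 5 and 28166 on day 12. Depth thus differed between phases, and its part in the let-7 values was not tested. The floor used for a count of 0, 3 counts, corresponds to between 0.00735% and 0.0255% of a library. Exact 95% binomial (Clopper-Pearson) intervals, like that floor, hold counting error alone, because the labels describe no molecular identifiers. Levels are percents of a library's miRNA counts unless a fold change is named. Day 12 library 4 had the lowest median correlation with its group (log2 CPM, 137 rows), 0.781. The other day 12 libraries were close to it, at 0.802 to 0.845, so this value does not set it apart. Day 5 libraries had 0.885 to 0.896. Before-DSS library 2 had 0.848, against 0.959 to 0.964 for the other libraries before DSS. Day 12 means without library 4 were added after the data were seen. Feces carried the miRNAs of gut epithelium as labelled: a list of 9, led by miR-192-5p, made up 12.4% to 22.3% of counts before DSS, 6.19% to 18.5% on day 5 and 11.7% to 20.6% on day 12, with all 9 counted in each phase.

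The 8 members together held 4.79% to 13.8% of a library's counts. Before DSS they held 8.36%, 8.32%, 8.95% and 8.15% of counts in libraries 1 to 4. On day 5 they held 8.83%, 13.8% and 10.8% in libraries 1, 3 and 4. On day 12 they held 7.23%, 7.92%, 8.65% and 4.79% in libraries 1 to 4. The family total averaged 8.45% ± 0.349 over the 4 libraries before DSS, 11.1% ± 2.51 over the 3 of day 5 and 7.15% ± 1.67 over the 4 of day 12 (mean ± SD), or 7.93% ± 0.710 over 3 without day 12 library 4. The family total of 2 of the 3 day 5 libraries lay above every other library, while day 5 library 1 lay within the range seen before DSS (its exact 95% interval was 8.42% to 9.25%). The order of the phases depended on the most abundant other miRNAs: with the 5 most abundant other rows left out of the total, the family held 18.1% ± 3.55 before DSS, 17.8% ± 2.59 on day 5 and 14.5% ± 3.36 on day 12 (mean ± SD over 4, 3 and 4 libraries), so that day 5 was no longer above before DSS and the spread was widest before DSS. No test was run on the total, since the members were chosen as a list.

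Over all 11 libraries let-7f-5p and let-7i-5p were the most abundant members, at means of 2.40% ± 0.677 and 2.35% ± 1.20 (SD, n = 11 each). Let-7g-5p followed at 1.54% ± 0.416, then let-7a-5p at 0.905% ± 0.299, let-7c-5p at 0.858% ± 0.239 and let-7b-5p at 0.509% ± 0.118 (SD, n = 11). Let-7d-5p (0.0915%) and let-7e-5p (0.0534%) were rare, with 219 and 112 counts in all libraries together. Neighbours in this order did not all differ beyond their spread. Let-7f-5p exceeded let-7i-5p in 5 of 11 libraries and let-7a-5p exceeded let-7c-5p in 5 of 11, whereas let-7g-5p exceeded let-7a-5p and let-7b-5p exceeded let-7d-5p in 11 of 11.

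The first question was how the members differed in acute colitis, on day 5 against before DSS. Let-7i-5p, known from human bile duct cells as a repressor of the endotoxin receptor TLR4, was the member with the largest difference upward. Let-7c-5p, linked in mouse macrophages to a less inflammatory state, was the member with the largest difference downward. The other 6 had overlapping groups. No member passed the threshold of 0.05 on the Benjamini-Hochberg adjusted p of edgeR's quasi-likelihood test.

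Let-7i-5p stood at 3.07%, 4.95% and 3.95% in day 5 libraries 1, 3 and 4, against 1.37%, 1.91%, 2.0% and 1.41% in before-DSS libraries 1 to 4. All 3 day 5 libraries were higher than all 4 from before DSS, and the nearest 2 did not overlap in counting error: the exact 95% interval was 2.82% to 3.33% in day 5 library 1 and 1.81% to 2.20% in before-DSS library 3. The mean was 3.99% ± 0.945 (SD, n = 3) on day 5 and 1.67% ± 0.328 (SD, n = 4) before DSS. The log2 fold change was 0.87 ± 0.28 (SE), with an unadjusted p of 0.00816 and an edgeR adjusted p of 0.155. It was 1.25 when libraries were scaled by their totals only (edgeR adjusted p = 0.0506). DESeq2 called let-7i-5p (log2 fold change 0.85, DESeq2 adjusted p = 0.0106), and limma-voom did not (limma-voom adjusted p = 0.177).

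Let-7c-5p stood at 0.666%, 0.353% and 0.706% in day 5 libraries 1, 3 and 4, against 1.11%, 0.846%, 0.811% and 1.08% in before-DSS libraries 1 to 4. All 3 day 5 libraries were lower than all 4 from before DSS, but the nearest 2 overlapped in counting error, with an exact 95% interval of 0.563% to 0.875% in day 5 library 4 and 0.693% to 0.944% in before-DSS library 3. The mean was 0.575% ± 0.193 (SD, n = 3) on day 5 and 0.960% ± 0.153 (SD, n = 4) before DSS. The log2 fold change was -1.15 ± 0.43 (SE), with an unadjusted p of 0.0199 and an edgeR adjusted p of 0.164. It was -0.74 when libraries were scaled by their totals only.

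Across all 137 rows that passed the filter on low counts, among them all 8 members, 0% passed the adjusted threshold in this comparison, and 0 of 8 members did. Let-7i-5p and let-7c-5p, 2 of 8 members, had an unadjusted p under 0.05, as did 24.8% of all rows, so the share among members was near the background. DESeq2 called 1 member, against 3.7% of the rows it tested, and limma-voom 0, against 0%. Groups did not overlap in percent of library total for 2 of 8 members, against 21.2% of all rows: 1 member was higher, against 16.1% of rows, and 1 lower, against 5.11%. With TMM factors, edgeR's scaling of libraries to each other, it was the same 2 members, against 18.2% of rows. The median log2 fold change was -0.28 over the 8 members, with 3 above 0 and 5 below, and 0.03 over all rows.

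Of the other members, let-7a-5p, best known as a repressor of Ras, had a log2 fold change of 0.10 ± 0.28 (SE) on day 5 against before DSS, and -0.12 without day 5 library 3. Let-7f-5p had -0.37 ± 0.37 and let-7g-5p, which slows Ras-driven lung tumours in mice, -0.20 ± 0.33 (SE). With library totals only, let-7f-5p had 0.07 and let-7g-5p 0.22, a scaling that moved the median of all rows to 0.34. Let-7b-5p had -0.48 ± 0.37, let-7d-5p -0.40 ± 0.42 (0.02 with library totals only) and let-7e-5p, a repressor of TLR4 in mouse macrophages, 0.32 ± 0.67 (SE). Their edgeR adjusted p was at least 0.480, and each had groups that overlapped. Single libraries moved several of these values: let-7d-5p had -0.13 without before-DSS library 1, let-7b-5p -0.28 without day 5 library 4, let-7f-5p -0.24 without before-DSS library 4 and let-7e-5p -0.00019 without day 5 library 3. Let-7g-5p ran from -0.37 to -0.11 when each library was left out in turn. In percent of library, let-7f-5p ran from 2.16% to 3.48% on day 5 and from 2.42% to 2.89% before DSS. Let-7g-5p ran from 1.42% to 2.42% on day 5 and from 1.47% to 1.78% before DSS, let-7a-5p from 0.884% to 1.67% and from 0.721% to 0.959%, and let-7b-5p from 0.392% to 0.723% and from 0.431% to 0.700%. Day 5 library 3 held the highest level of each of these 4 members. Let-7d-5p had 13, 11 and 12 counts in day 5 libraries 1, 3 and 4, against 35, 11, 15 and 20 in before-DSS libraries 1 to 4, and let-7e-5p 11, 15 and 7, against 11, 9, 13 and 10.

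**Figure D1:**
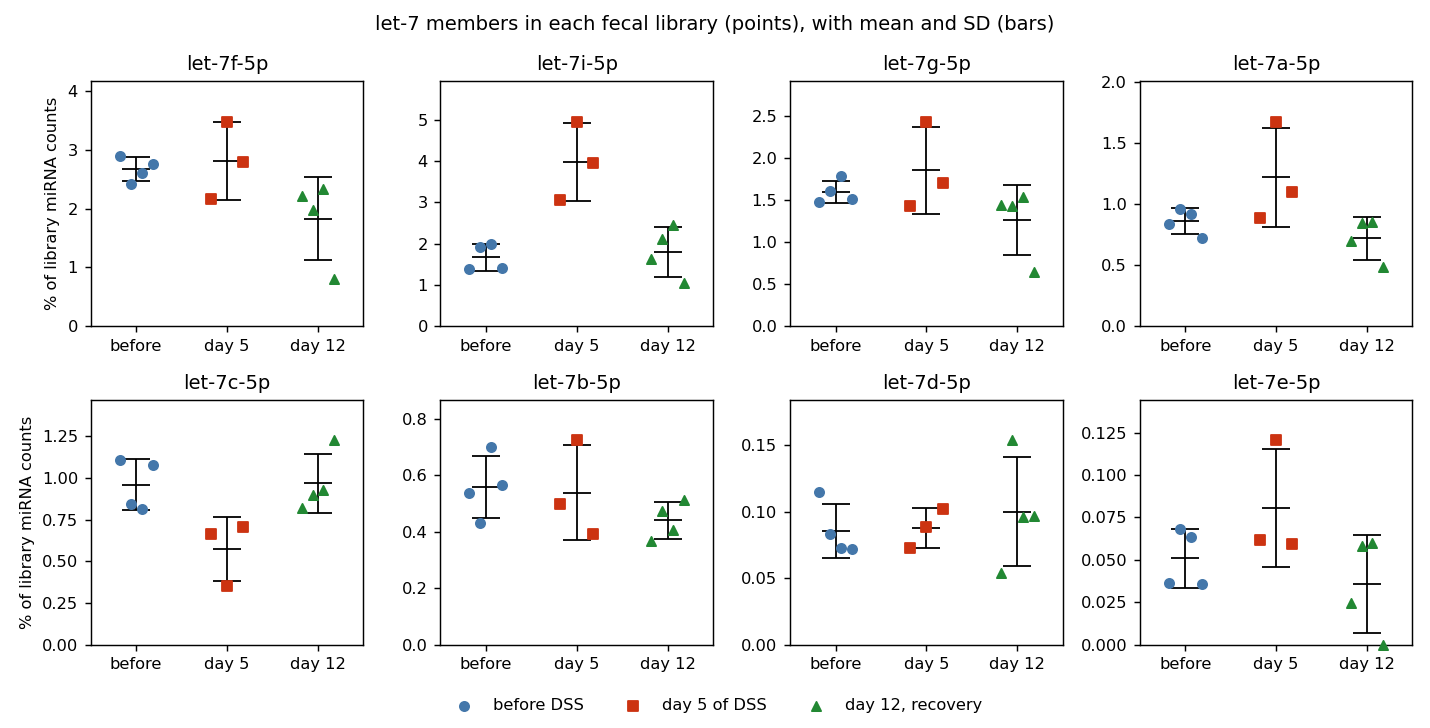
Percent of a library's miRNA counts (y axis, from 0, own scale in each panel) taken by each let-7 member before DSS, on day 5 and on day 12 (x axis); points are libraries and bars give the mean and SD. Day 5 points lie above all before-DSS and day 12 points for let-7i-5p (3.07% to 4.95%) and below all of them for let-7c-5p (0.353% to 0.706%).

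The makeup of the family, each member as a percent of the counts of all 8, does not depend on how libraries are scaled to each other, though the 8 shares add up to a whole and so are not independent. Let-7i-5p took 34.7%, 35.9% and 36.5% of let-7 counts in day 5 libraries 1, 3 and 4, against 16.4%, 23.0%, 22.3% and 17.3% in before-DSS libraries 1 to 4. The share averaged 35.7% ± 0.915 on day 5 (SD, n = 3), while the family totals of those libraries ran from 8.83% to 13.8%, and 19.7% ± 3.37 before DSS (SD, n = 4). With 464 to 617 counts of let-7i-5p a library, the day 5 SD was no larger than counting error. Let-7c-5p took 7.54%, 2.56% and 6.54% of let-7 counts in the same day 5 libraries, against 13.2%, 10.2%, 9.07% and 13.2% before DSS.

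Let-7f-5p took 25.2% ± 0.722 of let-7 counts on day 5 (SD, n = 3) and 31.7% ± 2.94 before DSS (SD, n = 4), and let-7g-5p 16.5% ± 0.960 and 18.8% ± 0.966. Both were lower in all 3 day 5 libraries than in all 4 from before DSS. For let-7g-5p the nearest 2 all but tied, at 17.56% in day 5 library 3 and 17.61% in before-DSS library 1. That gap is within the counting error of their 302 and 448 counts. Let-7a-5p kept a like share, 10.8% ± 1.16 on day 5 and 10.1% ± 1.10 before DSS, with groups that overlapped. In all, the makeup groups did not overlap for 1 member that was higher on day 5 and for 3 that were lower, let-7g-5p only within counting error. These counts have no share over all rows beside them, because the makeup is defined within the family. In percent of library let-7f-5p and let-7g-5p had groups that overlapped, with day 5 means that were not lower. Let-7f-5p averaged 2.81% ± 0.659 on day 5 and 2.67% ± 0.200 before DSS, and let-7g-5p 1.85% ± 0.518 and 1.59% ± 0.136 (SD).

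**Figure D2:**
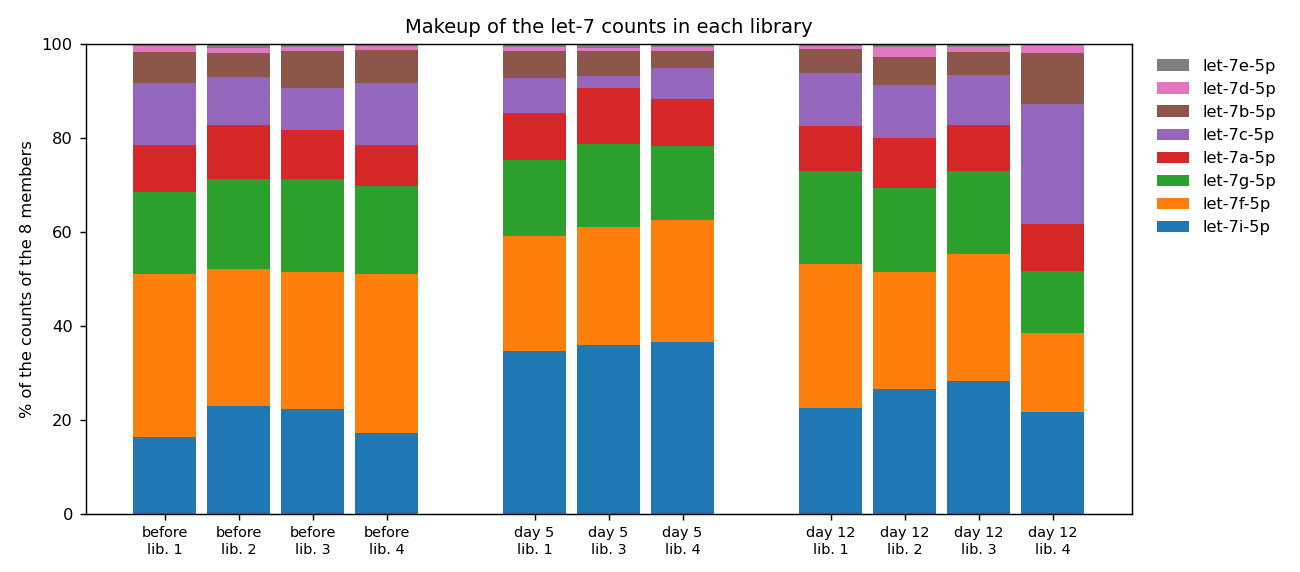
Share of each member in the counts of the 8 members (y axis, percent) in each of the 11 libraries (x axis, grouped by phase; lib. is the number in the deposited column). The let-7i-5p segment spans 34.7% to 36.5% in the day 5 libraries, and the let-7c-5p segment reaches 25.6% in day 12 library 4.

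The order at the top of the family also differed between phases. Let-7f-5p exceeded let-7i-5p in 4 of 4 libraries before DSS, let-7i-5p exceeded let-7f-5p in 3 of 3 on day 5, and in 3 of 4 on day 12. The count ratio of let-7i-5p to let-7f-5p ran from 0.476 to 0.788 before DSS, from 1.41 to 1.42 on day 5 and from 0.739 to 1.30 on day 12. As a log2 ratio it was 0.50 ± 0.0076 (SD, n = 3) on day 5, against -0.69 ± 0.38 (SD, n = 4) before DSS. The day 5 SD is far below the counting error of these counts, 464 to 617 of let-7i-5p and 329 to 433 of let-7f-5p. It therefore does not measure how steady the ratio was. The ratio of let-7i-5p to let-7c-5p was 1.24, 2.26, 2.46 and 1.31 in before-DSS libraries 1 to 4, then 4.61, 14.0 and 5.59 in day 5 libraries 1, 3 and 4, and 1.98, 2.35, 2.64 and 0.848 in day 12 libraries 1 to 4. Before DSS it was lower in libraries 1 and 4 (totals 30418 and 27870) than in libraries 2 and 3 (13240 and 20580). On day 12 the deepest library, library 1 (40835), did not have the lowest ratio. A relation to depth was not tested. On the log2 scale that ratio averaged 0.79 ± 0.52 over 4 libraries before DSS, 2.82 ± 0.85 over 3 on day 5 and 0.84 ± 0.74 over 4 on day 12 (mean ± SD), or 1.20 ± 0.21 over 3 without day 12 library 4. On day 5 both ratios lay above every library of the other phases. For let-7i-5p to let-7f-5p the gap was within counting error: 1.41 on day 5, against 1.30 in day 12 library 4, from 290 and 223 counts. The pairs were picked with values of these data known, so the ratios are a description and no test was run.

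**Figure D3:**
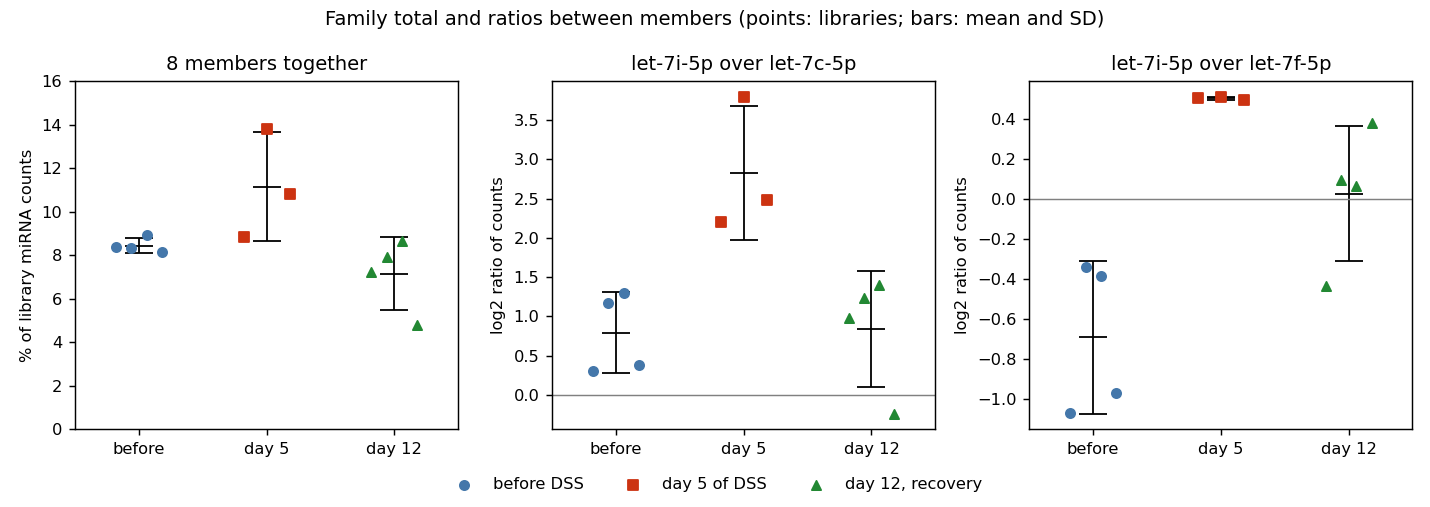
Left, the 8 members together as a percent of library miRNA counts; middle and right, log2 count ratios of let-7i-5p to let-7c-5p and to let-7f-5p (pseudocount 0.5), by phase (x axis); points are libraries, bars the mean and SD. The family total of day 5 library 1 (8.83%) lies within the before-DSS range, while both ratios of all 3 day 5 libraries lie above all others.

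The second question was how far the members stood from their start once DSS was withdrawn, on day 12 against before DSS. Log2 fold changes ran from -0.65 for let-7e-5p to 0.10 for let-7d-5p, and let-7f-5p was the member whose groups did not overlap in percent of library. Let-7i-5p stood at 1.63%, 2.10%, 2.44% and 1.04% in day 12 libraries 1 to 4, with a mean of 1.80% ± 0.608 (SD, n = 4), against 1.67% ± 0.328 before DSS (SD, n = 4). Its log2 fold change was 0.05 ± 0.26 (SE), and -0.03 without day 12 library 1. Let-7c-5p stood at 0.823%, 0.896%, 0.925% and 1.23%, with a mean of 0.968% ± 0.178 on day 12 and 0.960% ± 0.153 before DSS (SD, n = 4 each). Its log2 fold change was -0.01 ± 0.39 (SE), and -0.32 without day 12 library 4.

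Let-7f-5p, the most abundant member before DSS, stood at 2.21%, 1.97%, 2.33% and 0.799% in day 12 libraries 1 to 4, against 2.89%, 2.42%, 2.61% and 2.76% before DSS. All 4 day 12 libraries were lower in percent of library total, but the groups overlapped when scaled with TMM factors. The mean was 1.83% ± 0.702 on day 12 (SD, n = 4), or 2.17% ± 0.183 without library 4 (SD, n = 3), and 2.67% ± 0.200 before DSS (SD, n = 4). In edgeR its log2 fold change came to -0.64 ± 0.34 (SE) at an adjusted p of 0.355, and to -0.46 ± 0.31 without library 4. Let-7g-5p had a log2 fold change of -0.41 ± 0.30, let-7b-5p -0.37 ± 0.34, let-7a-5p -0.30 ± 0.26, let-7d-5p 0.10 ± 0.38 and let-7e-5p -0.65 ± 0.63 (SE), the last -1.24 by limma-voom. Without day 12 library 4 the log2 fold change was -0.26 for let-7g-5p, -0.61 for let-7b-5p, -0.25 for let-7a-5p, -0.04 for let-7d-5p and -0.27 for let-7e-5p. Without day 12 library 2 let-7a-5p had -0.16 and let-7b-5p -0.17.

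No member passed the adjusted threshold, where 6.57% of all rows did, and none had an unadjusted p under 0.05, where 16.8% did. DESeq2 and limma-voom called 0 members, against 8.89% and 5.84% of rows. Groups did not overlap in percent of library total for 1 of 8 members, let-7f-5p, against 13.9% of all rows: 0 members were higher, against 9.49% of rows, and 1 lower, against 4.38%. With TMM factors 0 members had groups apart, against 11.7% of rows. The median log2 fold change was -0.34 over the 8 members, with 2 above 0 and 6 below, and -0.02 over all rows.

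The third question was how recovery differed from the acute phase, on day 12 against day 5, a comparison that shares its day 5 libraries with the first. Let-7i-5p had a log2 fold change of -0.82 ± 0.28 (SE), or -1.15 with library totals only, an unadjusted p of 0.0112 and an edgeR adjusted p of 0.118. Let-7c-5p had 1.14 ± 0.43 (SE), or 0.75 with library totals only, an unadjusted p of 0.0210 and an edgeR adjusted p of 0.157. All 4 day 12 libraries were lower than all 3 day 5 libraries for let-7i-5p and higher for let-7c-5p. DESeq2 called let-7i-5p (DESeq2 adjusted p = 0.0111).

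Among all rows 3.65% passed the adjusted threshold and among members 0 of 8. Unadjusted p was under 0.05 for 2 of 8 members, let-7i-5p and let-7c-5p, and for 19% of all rows, and DESeq2 called 1 member, against 8.89% of the rows it tested, and limma-voom 0, against 4.38%. Groups did not overlap in percent of library total for 3 of 8 members, let-7a-5p and let-7i-5p lower and let-7c-5p higher, against 13.1% of all rows (4.38% higher and 8.76% lower). With TMM factors let-7a-5p overlapped, which left 2 of 8 members, against 16.1% of rows. Let-7a-5p stood at 0.695% to 0.854% in day 12 libraries 1 to 3 and 0.480% in library 4, against 0.884% to 1.67% on day 5. Let-7d-5p, which represses Hmga2 in lung epithelium, had a log2 fold change of 0.51 ± 0.42 (SE), or 0.18 with library totals only, and let-7e-5p -0.97 ± 0.67 (SE), or -0.59 without day 12 library 4 and -1.53 by limma-voom. Let-7b-5p had 0.11 ± 0.37 and -0.29 with library totals only, let-7f-5p -0.28 ± 0.37 and let-7g-5p -0.21 ± 0.32 (SE). Without day 12 library 4 let-7b-5p had -0.13, let-7f-5p -0.09 and let-7g-5p -0.06. Let-7a-5p had -0.41 ± 0.28 (SE), and -0.18 without day 5 library 3. Over the 8 members the median log2 fold change was -0.24, with 3 above 0 and 5 below, and over all rows -0.03.

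In the test for any difference among the 3 phases, 8.03% of all rows and 0 of 8 members passed. Unadjusted, the p of 2 members was under 0.05, against 21.9% of all rows. The smallest edgeR adjusted p among members was 0.0983, for let-7i-5p, followed by 0.209 for let-7c-5p. Let-7i-5p passed with library totals only (edgeR adjusted p = 0.0464), where 9.49% of rows did. It passed when the 5 members linked by single base differences were summed into 1 row (edgeR adjusted p = 0.0470), where 10.5% of rows did, and with DESeq2 (DESeq2 adjusted p = 0.00270), where 17% did. It did not pass with limma-voom (limma-voom adjusted p = 0.139), where 7.3% of rows did. With the column number as a block, 16.1% of rows passed, let-7c-5p among them (edgeR adjusted p = 0.0237) and let-7i-5p not (edgeR adjusted p = 0.0968). With the 5 members summed, that row had a log2 fold change of -0.19 ± 0.30 (SE) for day 5 against before DSS and let-7i-5p one of 1.06. For day 12 against before DSS these were -0.34 ± 0.28 (SE) and 0.10.

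**Figure D4:**
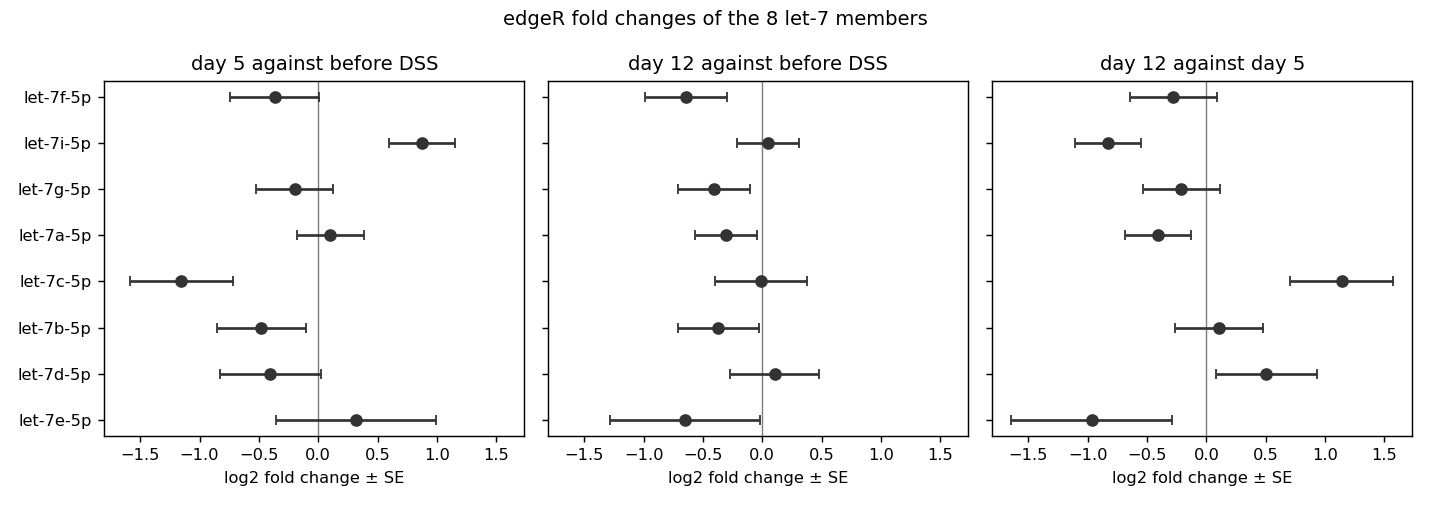
Log2 fold changes of the 8 members with standard errors (x axis) from edgeR, in the 3 comparisons; members run down the page by mean level. Let-7i-5p (0.87 and -0.82) and let-7c-5p (-1.15 and 1.14) lie farthest from 0 relative to their standard errors in the comparisons with day 5, and no member passed the adjusted threshold.

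Day 12 library 4 had a let-7 makeup of its own. It held 342 counts of let-7c-5p and 143 of let-7b-5p, 36.3% of its let-7 counts together, against 15.4% to 17.3% in the other day 12 libraries and 15.3% to 20.1% before DSS. The 2 members differ from each other at 1 base. As a percent of library, let-7c-5p and let-7b-5p together made up 1.74% there and 1.19% to 1.37% in the other day 12 libraries, while the other 6 made up 3.05% there and 6.04% to 7.32% in the other day 12 libraries. Let-7e-5p had 0 counts in this library, which allows up to 0.0108%, and 10 to 15 counts in the other day 12 libraries. Without this library let-7i-5p averaged 2.06% ± 0.407 and let-7c-5p 0.881% ± 0.0527 on day 12 (SD, n = 3 each).

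Marker miRNAs of other cell types stood at different levels between the phases, and their part in the let-7 values was not tested. In feces, fewer cells of a type and less RNA per cell cannot be told apart. A red blood cell list of 5, of which 4 had a row, made up 2.19% to 3.80% of counts on day 5, against 0.696% to 1.66% before DSS and 0.411% to 2.46% on day 12. Its most abundant row, miR-451a, averaged 2.26% ± 0.673 (SD, n = 3) on day 5 and 0.671% ± 0.210 (SD, n = 4) before DSS, and miR-144-3p and miR-144-5p had 0 counts before DSS. In day 12 library 4 the red blood cell list stood at 2.46%, within the day 5 range, while let-7i-5p stood at 1.04%, its lowest level. A list of 7 leukocyte miRNAs made up 0.128% to 0.247% on day 5 and 0.620% to 0.950% on day 12, against 0.0194% to 0.0453% before DSS, where 3 of the 7 (miR-142a-3p, miR-155-5p and miR-223-5p) had 0 counts. Its most abundant row, miR-223-3p, averaged 0.0362% ± 0.0137 over 3 libraries of day 5 and 0.449% ± 0.173 over 4 of day 12 (mean ± SD), and had 1 count before DSS. For 4 smooth muscle and stroma miRNAs, most of it miR-143-3p (0.969% ± 0.237 over 3 libraries on day 5, 0.506% ± 0.335 over 4 on day 12 and 0.760% ± 0.249 over 4 before DSS, mean ± SD), the sum was 0.772% to 1.28% on day 5, with miR-214-3p at 0 counts, 0.158% to 0.933% on day 12 and 0.531% to 1.15% before DSS. The gut epithelium list held 18.5%, 6.19% and 10.6% in day 5 libraries 1, 3 and 4, against 20.1%, 12.4%, 17.9% and 22.3% in before-DSS libraries 1 to 4, and day 5 library 3, where it was lowest, was also lowest for let-7c-5p and highest for let-7i-5p. Its most abundant row, miR-192-5p, averaged 4.39% ± 2.68 over 3 libraries on day 5 and 9.51% ± 4.11 over 4 before DSS (mean ± SD).

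The opposite arms of the hairpins were nearly absent, as is usual for let-7, whose 5′ arm is the one kept. The 7 rows for let-7 3′ arms held 54 counts in all libraries together, against 20280 for the 8 members. Of the 54, let-7d-3p held 38, so that let-7d had 5.76 counts of its 5′ arm per count of its 3′ arm. The other members together had 1254 counts of the 5′ arm per count of the 3′ arm. Let-7j, whose name places it in the family but whose seed in RefSeq, GAGGUAU, is another, had 3 counts.

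Hairpin neighbours of let-7 genes, which can be cut from the same transcript, were read out from a list of 6: miR-98-5p, miR-99a-5p, miR-99b-5p, miR-100-5p, miR-125a-5p and miR-125b-5p. The hairpin of miR-99b was not found in the source used here, so its distance to a let-7 gene was not read out. That of miR-125b-1 lies 45114 bases from let-7a-2. None of the 6 passed the adjusted threshold in any of the 3 comparisons, and 1 had an unadjusted p under 0.05, miR-100-5p on day 12 against day 5 (log2 fold change -1.72 ± 0.72 SE, edgeR adjusted p = 0.198). Its counts were 149, 530 and 152 in day 5 libraries 1, 3 and 4, so that library 3 stood out, and 8 in day 12 library 4, against 120 to 213 in the other day 12 libraries. MiR-99a-5p, whose hairpin ends 656 bases before that of let-7c-1, had a log2 fold change of -0.05 ± 0.47 (SE) on day 5 against before DSS, where let-7c-5p had -1.15. It had 13 counts in day 12 library 4, where let-7c-5p had 342. MiR-98-5p, 785 bases from let-7f-2 and of the same seed, had log2 fold changes of -0.13 ± 0.56 for day 5 and -0.02 ± 0.50 for day 12, each against before DSS (SE).

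The rows most like let-7i-5p and let-7c-5p over the 11 libraries were found by the root mean square difference of centred log2 CPM with TMM factors, among 129 rows that are not let-7. For let-7i-5p they were miR-25-3p (0.33), miR-27a-5p (0.34) and miR-10b-5p (0.36), where the median of all rows was 0.86. MiR-25-3p averaged 0.298% before DSS, 0.710% on day 5 and 0.358% on day 12. For let-7c-5p they were miR-429-3p (0.35), miR-194-5p (0.37) and miR-200a-3p (0.44), where the median was 1.02, and these 3 are members of the gut epithelium list. In percent of library, without TMM factors, miR-194-5p differed little: 1.98% before DSS, 1.87% on day 5 and 2.13% on day 12. In the same order miR-429-3p averaged 0.236%, 0.184% and 0.339%, and miR-200a-3p 2.12%, 1.11% and 1.41%. By the root mean square difference let-7i-5p lay 0.34 from let-7a-5p and 1.07 from let-7c-5p. The distance to let-7c-5p was above the median distance of all rows from let-7i-5p. These distances are a description over 11 libraries that share phases and depth.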

How the data were processed

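Small RNA from feces was prepared with a mirVana kit and TruSeq small RNA libraries, and reads of adapters, repeats and noncoding RNA other than miRNA were removed with the ACGT101-miR program, per the labels' protocols. The sources used here do not give the aligner, miRNA reference or build. The authors deposited raw read counts per miRNA row, used here, and TPM values, the count over the library total with no length term, of which the 4 day 12 columns were used to check the counts and 7 columns that match no single sample were not used. Day 12 columns match sample titles. Day 5 columns were assigned to their group only, and so were the 4 columns headed as day 1, to the phase before DSS. The labels' protocol speaks of 9 libraries, where 11 samples are listed.

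Counts of 616 rows were filtered with edgeR's filterByExpr, which kept 137, and tested in R 4.3.3 with edgeR 4.0.16, by a quasi-likelihood fit of 11 libraries on phase, with library sizes from all rows and TMM factors from 0.726 to 1.30,, with Benjamini-Hochberg adjustment over the 137 rows. Standard errors were taken from the F statistic. DESeq2 1.42.0 and limma-voom (limma 3.58.1) were alternatives, with other scalings and filters, a block, summed members and left-out libraries. Over all rows with at least 10 counts in a pair, libraries of a phase differed by more than sampling noise (chi-square over its degrees of freedom was 3.85 or more). Over the 8 members alone this value ran from 0.836 to 38.2, so the let-7 makeup of some pairs differed by no more than sampling noise. The column numbers were checked as pairs by the correlation of deviations from the phase means. On day 12 against before DSS it was 0.18 to 0.51 in 4 of 4 pairs, but 4 of the 8 libraries correlated best with their own number. Whether the numbers pair those libraries is thus not settled, and the block changed no member's call there. In the comparisons with day 5 the correlation was over 0.1 in 2 of 3 pairs each, and 3 of 6 libraries each correlated best with their own number. The main fit treated no libraries as pairs. The named miRNAs are the 8 members, other let-7 rows, 6 hairpin neighbours, the 3 rows nearest to let-7i-5p and to let-7c-5p, the leading row of each marker list and the marker rows with 0 counts in a phase. Members and lists were chosen with earlier results of these data known.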

Additional observations from a re-analysis of the deposited data

Results flagged for a closer look

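Among 36 sets of 4 libraries examined (each member's percent of library and percent of the 8 members, the family total and the ratio of let-7i-5p to let-7c-5p), 2 had a library whose gap to its nearest neighbour exceeded Dixon's 95% critical value, as a part of the range. Chance flags about 1 in 20. Both concern day 12 library 4. Let-7c-5p made up 25.6% of the counts of the 8 members there, where the next highest day 12 library had 11.4%. Let-7g-5p made up 0.638% of that library, where the next lowest day 12 library had 1.42%.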

How the results depend on the processing

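Of 489 values of the 24 member fold changes under alternatives, 464 kept their direction and their side of the threshold, 4 passed it and 21 changed sign. The 4 were let-7i-5p with DESeq2 and let-7c-5p with a replicate block taken from column numbers, in both comparisons with day 5. Members called were 0 in every comparison; they were 1 with DESeq2 and 1 with the replicate block in each comparison with day 5, and in the test among 3 phases 1 with DESeq2, library totals only or the 5 near-identical members summed (let-7i-5p each time) and 1 with the block (let-7c-5p). With the block let-7c-5p had log2 fold changes of -1.33 and 1.32 (edgeR adjusted p = 0.0227 and 0.0288). In each comparison with day 5, 3 of the 6 paired libraries correlated best with their own number, a hint from the data only. The cause was not tested. Leaving out each library gave 0 members called throughout.

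The values that changed sign ran in the main fit from -0.40 (let-7d-5p) to 0.32 (let-7e-5p), both on day 5 against before DSS. Let-7f-5p had -0.37 in that comparison. With library totals only, values on day 5 against before DSS were 0.022 for let-7d-5p, 0.074 for let-7f-5p and 0.22 for let-7g-5p (0.0053 with members summed), and let-7b-5p had -0.29 on day 12 against day 5. Let-7c-5p on day 12 against before DSS had 0.0095 with library totals, 0.085 with TMMwsp factors, 0.048 without a filter, 0.036 with the 10 CPM filter and 0.10 in a fit of the groups compared. Leaving out a library gave ranges of -0.12 to 0.21 for let-7a-5p and -0.00019 to 0.50 for let-7e-5p on day 5, -0.32 to 0.24 for let-7c-5p, -0.041 to 0.38 for let-7d-5p and -0.032 to 0.18 for let-7i-5p on day 12 against before DSS, and -0.13 to 0.30 for let-7b-5p on day 12 against day 5. Over the same fits let-7i-5p ran from 0.75 to 0.95 on day 5 against before DSS (edgeR adjusted p from 0.0658 to 0.330) and let-7c-5p from -1.39 to -0.87 (0.129 to 0.431). Without the 5 most abundant other rows the family total was 18.1% before DSS, 17.8% on day 5 and 14.5% on day 12, so its higher mean on day 5 was gone.

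Over all rows, calls on day 5 against before DSS were 0, and 1 with library totals or members summed, 5 with DESeq2 or the 10 CPM filter, 15 unfiltered and 16 with the block, and up to 2 when a library was left out. On day 12 against before DSS they were 9, and 17 unfiltered, 15 with the block and 5 to 14 leaving out a library. On day 12 against day 5 they were 5, and 2 with library totals or only the groups compared, 10 with the 10 CPM filter, 12 with DESeq2, 14 with the block, 21 unfiltered and 1 to 7 leaving out a library. Among 3 phases they were 11, and 17, 23, 22 and 29 with the 10 CPM filter, DESeq2, the block and no filter, and 7 to 11 leaving out a library. Low counts limit let-7d-5p and let-7e-5p, at most 35 and 15 counts a library.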
